A study of Homo sapiens with 6 samples.

Results

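The genes described here are 10 markers of the unfolded protein response of the endoplasmic reticulum (ER): *HSPA5*, *HSP90B1*, *DNAJB9*, *DNAJC3*, *SDF2L1*, *HERPUD1*, *XBP1*, *PDIA4*, *CALR* and *ATF6*. They were taken by name from the 60651 genes of the count tables, and all 10 had 1 identifier each and passed the filter of at least 10 counts in at least 3 libraries. RNA came from SK-N-AS, an established human neuroblastoma cell line without *MYCN* amplification, stably carrying the tetracycline repressor and a *MYCN* gene that tetracycline switches on, and kept as single clones under G418 and blasticidin. The 3 control libraries (labelled ETOH and Control) and the 3 MYCN-induced libraries (labelled Tet and Induction) were both made at 120 h, or 5 days. No tetracycline-treated culture lacking the introduced gene was analysed here, so tetracycline and MYCN cannot be told apart. The comparison sets mRNA markers of ER stress beside those of other stress in these cells.

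Proteins that enter the ER are folded there by chaperones, and when unfolded proteins accumulate, sensors in its membrane respond. IRE1 (*ERN1*) splices the *XBP1* mRNA into the form that encodes an active transcription factor, ATF6 is cut by proteases into a soluble transcription factor, and PERK (*EIF2AK3*) phosphorylates eIF2-alpha, which favours translation of *ATF4*. ATF6 and spliced XBP1 raise chaperones and degradation factors of the ER, whereas ATF4 is also reached by kinases that sense amino acid shortage, viral RNA or haem deficiency, so that *ATF4* targets alone do not identify the ER as the origin of a stress. Gene counts report the amount of each mRNA. They show neither the splicing of *XBP1* nor the cleavage of ATF6 protein.

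The promoters of 6 of the 10 members held an element of the ER stress response, and since the members were picked as genes of the ATF6 and XBP1 arms, these elements are not independent of that choice. In the promoters of RefSeq (GRCh38.p14, 250 bases before to 50 bases from the start of each gene), all 10 members were found, and each was searched on both strands. These starts can differ from the gene coordinates given further below, which come from the annotation used for counting. The window of *HSP90B1*, from 103930160 to 103930459, lies inside its gene coordinates, which begin at 103930107. The ER stress response element (ERSE), to which ATF6 binds together with NF-Y, was searched as CCAAT, any 9 bases and CCACG. It was present in 4 of the 10 members and in 22 of 27305 promoters (0.0806%). Among 19 promoters of other ER folding factors, 3 held ERSE (15.8%), 1 held ERSE-II (5.26%) and 3 held the core of the unfolded protein response element (15.8%). ERSE-II, searched as ATTGG, any base and CCACG, was present in another 2 members and in 15 of all promoters (0.0549%). Both elements end in CCACG and the first part of one is the reverse complement of the other's, so they are related and not independent features. The sequences below run 5′ to 3′ on the strand of the gene, positions are counted from the RefSeq start, and capitals mark the element. They are shown so that the element of each member can be set beside its values.
HSPA5, ERSE from -66 to -48, chr9:125241381-125241419, minus strand: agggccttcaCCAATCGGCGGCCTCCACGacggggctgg
XBP1, ERSE from -52 to -34, chr22:28800593-28800631, minus strand: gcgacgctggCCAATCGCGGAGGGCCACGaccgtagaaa
HSP90B1, ERSE from -194 to -176, chr12:103930206-103930244, plus strand: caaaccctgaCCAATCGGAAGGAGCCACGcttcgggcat
HSP90B1, reversed ERSE from -89 to -71, chr12:103930311-103930349, plus strand: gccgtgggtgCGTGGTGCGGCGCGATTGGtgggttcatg
CALR, reversed ERSE from -225 to -207, chr19:12938374-12938412, plus strand: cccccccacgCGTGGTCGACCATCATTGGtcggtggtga
SDF2L1, reversed ERSE-II from -188 to -178, chr22:21642104-21642134, plus strand: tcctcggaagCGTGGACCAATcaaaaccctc

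*HERPUD1* was the member whose window held the largest number of different searched motifs. Beside ERSE-II from -117 to -107, it held the letters TGATG, any base and AA, a form of the site bound by ATF4 with C/EBP proteins, reversed from -176 to -169, and an E-box (CACGTG), the site of MYC family proteins, from -159 to -154. The ATF4-type letters were in 1003 of all promoters (3.67%) and in 1 of the 10 members, and the E-box was in 2030 promoters (7.43%) and in 3 members. The line for *HERPUD1* shows all 3 motifs in capitals, in the order ATF4-type site, E-box and ERSE-II, and the line for *DNAJB9* shows its pair of E-boxes, from -73 to -68 and from -49 to -44.
HERPUD1, chr16:56931956-56932045, plus strand: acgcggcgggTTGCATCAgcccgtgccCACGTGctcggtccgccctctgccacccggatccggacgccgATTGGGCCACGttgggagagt
DNAJB9, chr7:108569791-108569840, plus strand: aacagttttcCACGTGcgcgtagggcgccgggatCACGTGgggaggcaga
*HSP90B1* also held an E-box, from -248 to -243. No searched motif was found in the windows of *DNAJC3*, *PDIA4* and *ATF6*. The core of the unfolded protein response element (TGACGTG) was in 546 promoters (2%) and in 0 of the 10. These matches describe letters in 1 fixed window and are not measured binding.

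Libraries held between 64500589 and 102249336 counted read pairs. Members had at least 259 counts in every library, and the spread between libraries set the precision. *MYCN* checked the labels, at 30.3, 35.5 and 32.4 CPM (counts scaled to a common library total after TMM normalization) in control replicates 1, 2 and 3 and at 211, 221 and 199 CPM in MYCN-induced replicates 1, 2 and 3. MYCN-induced replicate 3 had a score of 69.1 on the first principal component, while replicates 1 and 2 had 14.4 and 13.1 and the controls -40.3 to -25.9. Many results for which replicate 3 lay far from the other induced libraries are given with and without it. In bulk RNA, fewer cells of a type and less RNA per cell cannot be told apart. The adrenergic neuroblastoma factors *GATA3* and *HAND2* were expressed, at 121 and 442 CPM in control cells, while *TH*, which encodes the first enzyme of catecholamine synthesis, was at 1.08 CPM. The 7 adrenergic markers summed to between 817 and 1117 CPM in controls and between 797 and 991 CPM in induced libraries, and *CHGA* among them fell (edgeR, adjusted p = 0.0492). Of 6 mesenchymal markers *CD44* had 0 counts, *FN1* fell (edgeR, adjusted p = 0.0330), and their sum was 471 to 493 CPM in controls and 534 to 565 CPM in induced libraries. Of the 5 tested, *FN1* alone had a log2 fold change below 0 and 4 lay above 0, with a median of 0.20. Without MYCN-induced replicate 3, edgeR called *VIM* (adjusted p = 0.0254), *PRRX1* (adjusted p = 0.0273) and *YAP1* (adjusted p = 0.0366) higher and *FN1* lower (adjusted p = 0.0126). That fit also called the adrenergic markers *DBH* (-1.22, adjusted p = 0.0156) and *CHGA* (-1.29, adjusted p = 0.0471) lower. In it 1060 of 28797 genes were called higher (3.68%) and 1279 lower. With all libraries DESeq2 called *DBH* (adjusted p = 0.0400), *CHGA* and *FN1* lower and *VIM* higher, against 1199 of 29086 genes lower and 904 higher. The part of these markers in the results was not tested. Summed over 4 markers each, leukocyte genes stayed between 1.42 and 2.30 CPM and epithelial and endothelial genes between 0.419 and 0.774 CPM in the 6 libraries, and the defining markers *CD3E* and *CDH1* did not pass the count filter.

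After MYCN induction the fold changes of *HSPA5*, *HSP90B1*, *CALR*, *DNAJC3* and *SDF2L1* lay between 0.946 and 1.07, whereas *HERPUD1*, *XBP1* and *DNAJB9* had the highest fold changes of the 10, and none of the 10 passed the threshold. *HERPUD1*, a factor of ER-associated degradation, was 2.23-fold higher (95% interval 1.20 to 4.12), *XBP1* was 1.94-fold higher (1.13 to 3.34) and *DNAJB9*, a co-chaperone of the ER, was 1.34-fold higher (1.10 to 1.63). In contrast, *HSPA5*, which encodes the chaperone BiP, had a fold change of 1.02 (0.891 to 1.17). By edgeR's quasi-likelihood test with Benjamini-Hochberg adjustment over all 29086 tested genes, 0 members were higher and 0 were lower at an adjusted p below 0.05. Of all tested genes 1.02% were higher and 2.38% were lower by this rule. At an unadjusted p below 0.05, 3 members were higher and 0 were lower, against 8.13% and 10.6% of all tested genes. The 3 control and 3 induced values did not overlap for 5 members, all higher in induced cells, against 11.5% of all genes higher without overlap and 14.7% lower. DESeq2 called 2 members higher (3.11% of all genes), *DNAJB9* with an adjusted p of 0.0317 and *XBP1* with an adjusted p of 0.0397. The median log2 fold change of the 10 was 0.12, against -0.0004 for all tested genes. The intervals are those of single genes and are not adjusted for the number of genes.

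**Figure D1:**
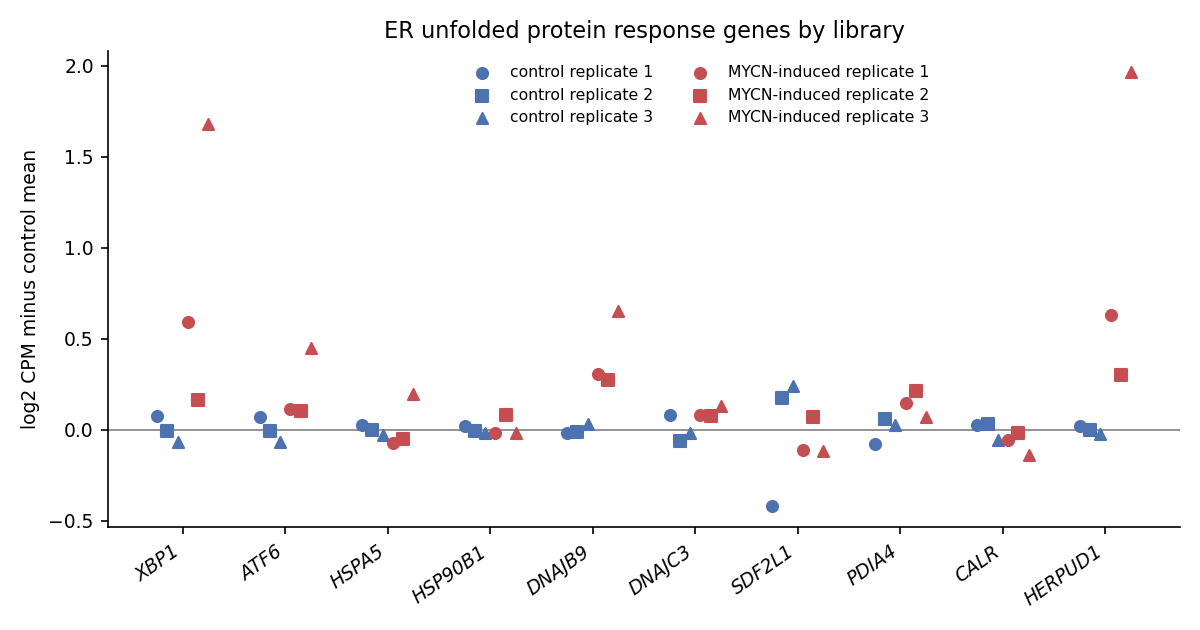
Each point is 1 library's log2 CPM of a gene minus the mean of the 3 control libraries (vertical axis, log2 units), with control libraries in blue, MYCN-induced libraries in red and the replicate number given by the shape. *HERPUD1* and *XBP1* reach 1.96 and 1.68 in MYCN-induced replicate 3, while *HSP90B1* and *CALR* stay within 0.14 of the control mean in every library.

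Of the transcription factors, *XBP1* (chromosome 22 of GRCh38 from 28794555 to 28800597, minus strand) was at 56.4, 53.2 and 51.1 CPM in control replicates 1, 2 and 3. In MYCN-induced replicates 1, 2 and 3 it was at 80.7, 59.9 and 172 CPM. All 3 induced libraries lay above all 3 controls, with replicate 2 close to them and replicate 3 far above. edgeR gave 0.96 on the log2 scale, with a standard error of 0.34 and an adjusted p of 0.182. Without MYCN-induced replicate 3 it was 0.40 (edgeR, adjusted p = 0.0882). *ATF6* (chromosome 1 from 161766298 to 161977574, plus strand), the sensor that is itself a transcription factor, was at 96.5, 91.4 and 87.7 CPM in controls and at 99.5, 98.6 and 125 CPM in induced cells. The groups did not overlap, and again replicate 3 was the highest. This difference was 0.23 in log2 units by edgeR, with a standard error of 0.10 and an adjusted p of 0.282. Without MYCN-induced replicate 3 it was 0.12 (edgeR, adjusted p = 0.212).

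*HERPUD1* (chromosome 16 from 56932142 to 56944864, plus strand) encodes an ER membrane protein that assembles the complexes of ER-associated degradation. It was at 33.4, 32.8 and 32.3 CPM in the controls, with a standard deviation of 0.51 CPM. The induced libraries were at 50.8, 40.4 and 128 CPM, all above the controls. On the log2 scale the edgeR estimate was 1.15, its standard error 0.38 and its adjusted p 0.159. Without MYCN-induced replicate 3, the log2 fold change was smaller, 0.48, and passed the threshold (edgeR, adjusted p = 0.0306). It was the only member called there, where 3.68% of all genes were called higher. In the other fits that each left out 1 library, and in the remaining alternatives, *HERPUD1* was not called, DESeq2 included (adjusted p = 0.220).

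The chaperone HSP70 of the ER, BiP, is encoded by *HSPA5* (chromosome 9 from 125234853 to 125241382, minus strand) and is a classical target of ATF6 through ERSE. It was at 353, 346 and 339 CPM in controls and at 329, 334 and 396 CPM in induced cells. MYCN-induced replicates 1 and 2 lay below every control and replicate 3 above every control, so the controls lay inside the induced range. edgeR gave 0.03 on the log2 scale, with a standard error of 0.08 and an adjusted p of 0.902, and -0.05 without MYCN-induced replicate 3. The ER HSP90, *HSP90B1* (chromosome 12 from 103930107 to 103953931, plus strand), was at 665, 653 and 648 CPM in controls and at 647, 692 and 649 CPM in induced cells. Here the values intermingled and replicate 3 did not stand out. This difference was 0.02 in log2 units by edgeR, with a standard error of 0.06 and an adjusted p of 0.928. Parts of *HSP90B1* are shared with other genes in the annotation used for counting, 805 exon bases with *UQCC6* and 105 with *TTC41P* on the other strand and 131 with *MIR3652* on the same strand, of 13092 exon bases. The 3 overlapping genes had log2 fold changes of -0.08, -0.05 and 0.44, with adjusted p from 0.568 to 0.892 from edgeR.

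The co-chaperones of BiP carry a J domain or assist it. *DNAJB9* (chromosome 7 from 108569867 to 108574850, plus strand), which also holds IRE1 inactive, was at 8.34, 8.36 and 8.64 CPM in controls and at 10.4, 10.2 and 13.3 CPM in induced cells. Every induced library was higher than every control, by 0.31, 0.27 and 0.65 on the log2 scale in replicates 1, 2 and 3 relative to the control mean. The edgeR estimate was 0.42 in log2 units, its standard error 0.12 and its adjusted p 0.115, the smallest adjusted p of the 10, and 0.30 without MYCN-induced replicate 3 (edgeR, adjusted p = 0.0659). *DNAJC3* (chromosome 13 from 95677139 to 95794988, plus strand), a luminal co-chaperone first known as an inhibitor of eIF2-alpha kinases, was at 43.96, 39.7 and 40.9 CPM in controls and at 43.9, 43.7 and 45.4 CPM in induced cells. Control replicate 1 lay among the induced values. edgeR gave 0.09 on the log2 scale, with a standard error of 0.07 and an adjusted p of 0.528. *SDF2L1* (chromosome 22 from 21642302 to 21644299, plus strand), a partner of ER J-domain proteins, was at 3.23, 4.88 and 5.11 CPM in controls and at 3.99, 4.53 and 3.97 CPM in induced cells. The widest control spread of the 10 on the log2 scale, 0.66, was that of *SDF2L1*, with control replicate 1 the lowest of the 6 libraries. The difference between conditions was -0.08 in log2 units by edgeR, with a standard error of 0.18 and an adjusted p of 0.866, with an interval from 0.707-fold to 1.27-fold.

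*PDIA4* (chromosome 7 from 149003062 to 149028662, minus strand), a protein disulfide isomerase, was at 136, 149 and 146 CPM in controls and at 159, 166 and 151 CPM in induced cells. The groups were adjacent without overlap, and MYCN-induced replicate 3 was the lowest of the induced libraries, unlike in *XBP1* and *HERPUD1*. On the log2 scale the edgeR estimate was 0.15, its standard error 0.07 and its adjusted p 0.311, with an interval from 0.990-fold to 1.24-fold. *CALR* (chromosome 19 from 12938578 to 12944489, plus strand) encodes calreticulin, a lectin chaperone that binds calcium. It was at 446, 448 and 422 CPM in controls and at 423, 433 and 399 CPM in induced cells. Values of the groups overlapped, with MYCN-induced replicate 3 the lowest. edgeR gave -0.07 on the log2 scale, with a standard error of 0.06 and an adjusted p of 0.625, with an interval from 0.859-fold to 1.06-fold. A long noncoding gene on the opposite strand (ENSG00000267458) shares 270 of the 2802 exon bases of *CALR*, and its log2 fold change was -0.25 (edgeR, adjusted p = 0.292).

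**Figure D2:**
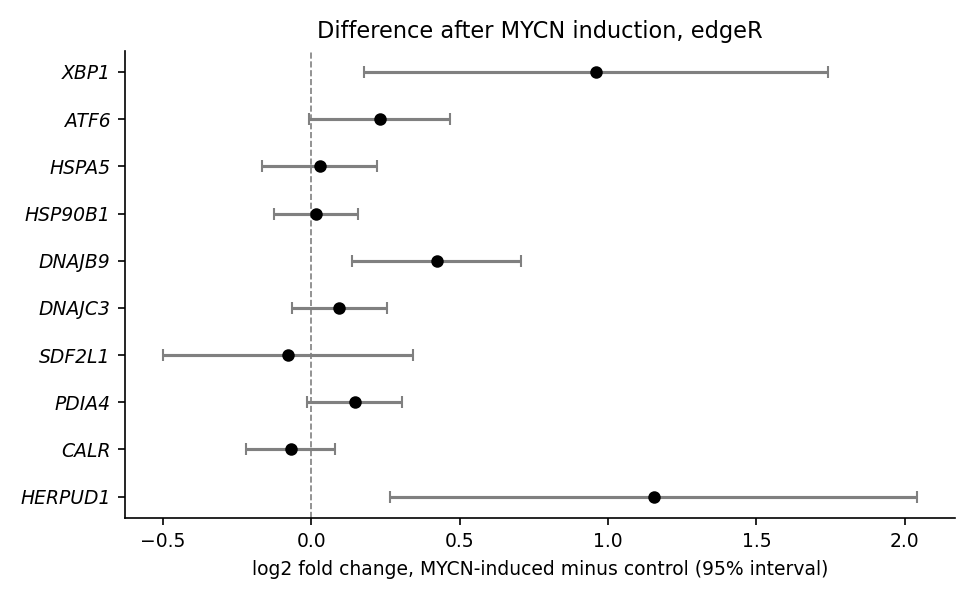
Points give the log2 fold change of MYCN-induced against control cells from edgeR (horizontal axis, log2 units) and bars its 95% interval for each gene, with 3 libraries per group. The intervals of *XBP1*, *DNAJB9* and *HERPUD1* lie above 0, before adjustment for the number of genes, and those of *HSP90B1* and *CALR* are the narrowest around 0.

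A ratio of members within a library is free of scaling between libraries. Per 100 counts of *HSPA5* in the same library, *HERPUD1* had 9.46, 9.48 and 9.52 counts in controls and 15.5, 12.1 and 32.3 in induced cells. *XBP1* had 16.0, 15.4 and 15.1 counts per 100 of *HSPA5* in controls and 24.5, 18.0 and 43.4 in induced cells. For *DNAJB9* the ratio was 2.37, 2.42 and 2.55 in controls and 3.18, 3.06 and 3.36 in induced cells, and for *ATF6* 27.4, 26.4 and 25.8 against 30.3, 29.6 and 31.7. In these 4 ratios the groups did not overlap. Ratios of other genes to *HSPA5* were not computed, so no share of all genes can be set beside this count. *HSPA5* itself lay below every control in MYCN-induced replicates 1 and 2 (329 and 334 against 339 to 353 CPM), which raises any ratio to it there. For *DNAJB9* and *ATF6*, unlike for the CPM, MYCN-induced replicate 3 was close to the other induced libraries. The ratios of *HSP90B1*, *DNAJC3*, *SDF2L1*, *PDIA4* and *CALR* to *HSPA5* overlapped between groups, with *CALR* at 127, 130 and 124 in controls and 128, 130 and 101 in induced cells. These ratios were computed after the values were seen and are given without a test.

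Compared per exon length, as TPM (counts per exon base, scaled to a common total), the members spanned a wide range of levels in control cells. *CALR* was the most abundant at 257 TPM, followed by *HSPA5* at 87.1, *HSP90B1* at 82.2 and *PDIA4* at 71.4 TPM. *XBP1* stood between the abundant chaperones and the rest at 29.1 TPM. *DNAJC3* was at 12.2, *HERPUD1* at 10.7, *ATF6* at 10.6, *SDF2L1* at 6.78 and *DNAJB9* at 5.46 TPM. Neighbours in this order whose control libraries overlapped were *HSPA5* and *HSP90B1*, *HERPUD1* and *ATF6*, and *SDF2L1* and *DNAJB9*, so their order is not resolved. In induced cells *HERPUD1* averaged 22.5 TPM, above *DNAJC3* at 13.0 TPM, and *XBP1* averaged 53.9 TPM. TPM used all annotated exon bases of a gene, which lowers the value of genes with many annotated exon bases such as *HSP90B1* and *ATF6* (13092 and 14263 exon bases).

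**Figure D3:**
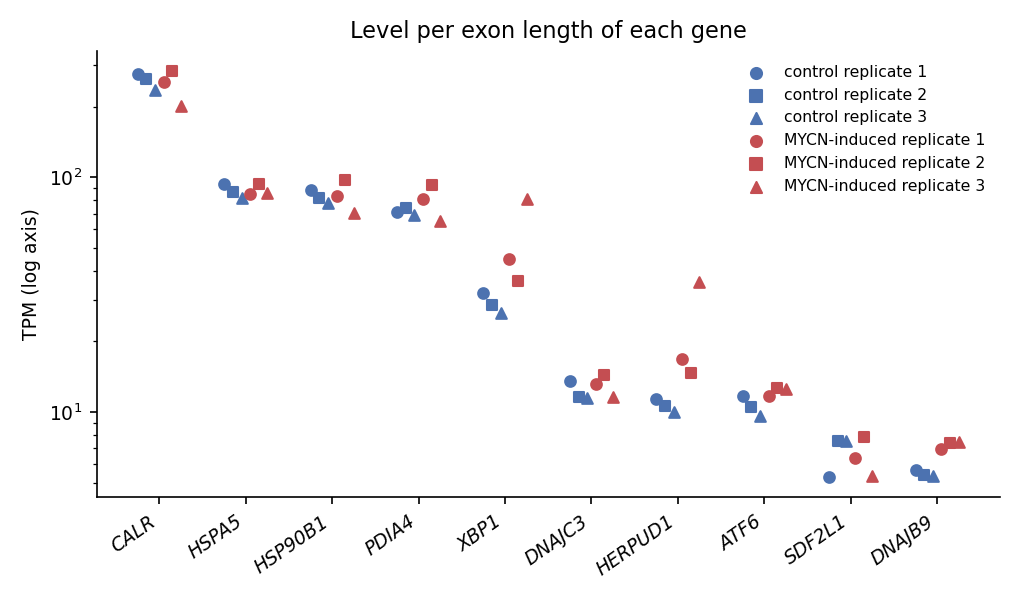
Each point is the TPM of a gene in 1 library (vertical log axis), ordered by the control mean, with colours for conditions and shapes for replicate numbers. *CALR* lies highest at 257 TPM in control cells and *DNAJB9* lowest at 5.46 TPM. The condition means differ most for *XBP1* and *HERPUD1*, which reach 80.5 and 35.9 TPM in MYCN-induced replicate 3.

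The profile most like that of *HSPA5* over the 6 libraries, measured as the mean absolute difference in log2 CPM relative to the control mean among 10157 genes with a mean of at least 10 CPM, was that of *NSFL1C*, at 0.0099. *NSFL1C* encodes p47, a cofactor of the ATPase VCP. Next came the identifier ENSG00000273637, at 0.012. They had log2 fold changes of 0.02 and 0.01 and, like *HSPA5*, lay above the controls in MYCN-induced replicate 3 alone.

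In the wider folding, degradation and transport machinery of the ER no gene passed the threshold by edgeR with all 6 libraries and a count filter, and *EDEM1* had the largest log2 fold change. Among 22 other ER folding factors, all tested, 0 passed the threshold in either direction, and the median log2 fold change was 0.12. At an unadjusted p below 0.05, 4 were higher and 1 was lower (8.13% and 10.6% of all tested genes). DESeq2 called 2 of the 22 higher, *PDIA5* and *TXNDC5* (3.11% of all genes). Without MYCN-induced replicate 3 edgeR called *TXNDC5* higher (0.24, adjusted p = 0.0388) and *CRELD1* lower (-0.49, adjusted p = 0.0494). That fit called 1060 of 28797 genes higher (3.68%) and 1279 lower. The most abundant by CPM, *UGGT1*, which marks misfolded glycoproteins for another round of folding, was at 272 ± 7.47 CPM before and 274 ± 6.16 CPM after induction (SD, n = 3 each). *DNAJB11*, a co-chaperone of BiP, was at 39.1 ± 1.27 and 48.2 ± 4.90 CPM (log2 fold change 0.30, edgeR, adjusted p = 0.113). *CRELD1*, a membrane protein of the ER, was at 1.91 ± 0.014 and 1.40 ± 0.083 CPM (log2 fold change -0.44, edgeR, adjusted p = 0.101). Exons of *DNAJB11* overlap those of *TBCCD1* and *HRG-AS1* on the other strand, with which reads could be shared, and those of ENSG00000283149 on the same strand (log2 fold change 0.35, edgeR, adjusted p = 0.0752).

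Of 20 factors of ER-associated degradation, 19 passed the count filter and 0 passed the threshold, with a median log2 fold change of 0.04. *EDEM1*, which helps to trim mannose from misfolded glycoproteins and is a known target of XBP1, was at 36.2, 34.0 and 33.9 CPM in controls and at 42.8, 39.4 and 91.8 CPM in induced cells. All induced libraries lay above the controls, replicate 3 by far the most, as for *HERPUD1* and *XBP1*. This difference was 0.74 in log2 units by edgeR, with a standard error of 0.29 and an adjusted p of 0.230. It was 0.25 without MYCN-induced replicate 3 (edgeR, adjusted p = 0.0552). *EDEM1* shares 631 of its 6737 exon bases with ENSG00000268509 on the opposite strand, which was at most 0.802 CPM. *SYVN1*, the ubiquitin ligase HRD1, differed by 0.19 in log2 units (edgeR, adjusted p = 0.627) with control replicate 1 at 46.5 CPM and the other controls at 71.6 and 76.4 CPM. *UBE2G2*, the ubiquitin-conjugating enzyme with the highest mean CPM of the list, was at 235 ± 3.74 and 241 ± 7.39 CPM (SD, n = 3 each).

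Of 22 genes of ER translocation and export, 0 passed the threshold, and the median log2 fold change was 0.07. At an unadjusted p below 0.05, 4 were higher and 0 were lower (8.13% and 10.6% of all tested genes). DESeq2 called *SSR3* and *SRPRB* higher (3.11% of all genes). edgeR without a count filter called *SSR3* higher (470 of 45073 genes). edgeR without MYCN-induced replicate 3 called *SEC63*, *SSR3* and *SRPRB* higher (3.68% of all genes). *SEC63*, which recruits BiP to the translocation channel, was at 166, 157 and 161 CPM in controls and at 189, 183 and 256 CPM in induced cells (log2 fold change 0.37, edgeR, adjusted p = 0.163), and its log2 fold change was 0.21 without MYCN-induced replicate 3 (edgeR, adjusted p = 0.0428). *SSR3*, a subunit of the translocon-associated complex, was at 171, 159 and 156 CPM in controls and at 199, 217 and 193 CPM in induced cells (log2 fold change 0.33, edgeR, adjusted p = 0.0549). The groups did not overlap in either gene, and MYCN-induced replicate 3 was the highest library for *SEC63* and the lowest induced one for *SSR3*. *SSR2*, the gene of the list with the highest mean CPM, differed by -0.08 in log2 units (edgeR, adjusted p = 0.599).

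Among the 8 sensors of ER stress and the proteases that cut ATF6, only *EIF2AK3* passed the threshold, and it was lower. Of all tested genes 2.38% were called lower and 1.02% higher. *EIF2AK3*, which encodes PERK, fell from 19.9, 18.9 and 17.8 CPM in controls to 12.4, 13.8 and 11.8 CPM in induced cells. The groups were well separated and MYCN-induced replicate 3 did not stand apart. On the log2 scale the edgeR estimate was -0.57, its standard error 0.10 and its adjusted p 0.0241, or 0.672-fold with an interval from 0.575 to 0.784. Without MYCN-induced replicate 3 it was -0.51 (edgeR, adjusted p = 0.0168). Without 1 of the 3 controls or without MYCN-induced replicate 1 it was between -0.62 and -0.54 and missed the threshold, with adjusted p from 0.0883 to 0.145 from edgeR. Over all tested genes these fits called 72 to 216 lower, against 692 with all libraries. A gene on the opposite strand, ENSG00000225420, shares 781 of the 5469 exon bases of *EIF2AK3* and fell as well, by 0.57 on the log2 scale (edgeR, adjusted p = 0.0419), and without a strand option reads in the shared bases cannot be told apart. *ERN1*, which encodes IRE1, differed by 0.25 in log2 units (edgeR, adjusted p = 0.590) and by -0.06 without MYCN-induced replicate 3 (edgeR, adjusted p = 0.625). *MBTPS2*, the site-2 protease with the highest mean CPM of the list, differed by -0.04 (edgeR, adjusted p = 0.774). The members' own sensor, *ATF6*, was at 0.23 and its relative *ATF6B* at -0.06.

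The other stress lists were set beside the members as other stress responses, beginning with the targets of ATF4 and CHOP. This list was chosen with earlier results of these libraries known, so its direction is not independent evidence. Of its 18 genes, 17 passed the count filter. At an adjusted p below 0.05 from edgeR, 3 were higher and 0 lower (1.02% and 2.38% of all tested genes). At an unadjusted p below 0.05, 15 were higher (8.13% of all tested genes). The median log2 fold change was 2.00, and the 17 values ran from 0.46 to 4.44, against -0.08 to 1.15 for the 10 ER genes. *ATF4* itself rose from 189, 189 and 204 CPM to 319, 300 and 547 CPM (log2 fold change 1.01, edgeR, adjusted p = 0.0475). *PHGDH*, the first enzyme of serine synthesis, rose by a log2 fold change of 2.09 (adjusted p = 0.0482) and *SLC7A11*, the cystine transporter, by 3.52 (adjusted p = 0.0494), both from edgeR. Without MYCN-induced replicate 3, edgeR gave 0.68 for *ATF4* (adjusted p = 0.00298), 1.40 for *PHGDH* (adjusted p = 0.0188) and 2.07 for *SLC7A11* (adjusted p = 0.00564). With the replicate block *SLC7A11* was at 2.85 and missed the threshold (edgeR, adjusted p = 0.0551). The count of 3 depended on single libraries. It was 0 without any 1 of the controls and without MYCN-induced replicate 1, 6 without MYCN-induced replicate 2 and 11 without MYCN-induced replicate 3, where the median was 0.77. Calls over all tested genes also moved in these fits. With all libraries 298 genes were higher, against 46, 18 and 30 without control replicates 1, 2 and 3. Without MYCN-induced replicates 1, 2 and 3 the numbers were 73, 169 and 1060. The log2 fold change of *SLC7A11* stayed between 3.47 and 3.55 when a control was left out.

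Of 12 genes of the cytosolic heat shock response, 10 passed the count filter, 0 passed the threshold, and the median log2 fold change was 0.07. All 10 lay above 0, and the median was 0.15 without MYCN-induced replicate 3. At an unadjusted p below 0.05, 4 were higher and 0 lower (8.13% and 10.6% of all tested genes). The groups did not overlap for 4, all higher (11.5% of all tested genes). DESeq2 called *STIP1* higher (3.11% of all genes), and edgeR without MYCN-induced replicate 3 called *STIP1* and *HSPH1* higher (3.68% of all genes). The abundant cytosolic chaperone *HSP90AA1* was at 0.09 (adjusted p = 0.732), the co-chaperone *BAG3* at 0.27 (adjusted p = 0.245) and the HSP70-HSP90 adaptor *STIP1* at 0.23 (adjusted p = 0.0847), all from edgeR. Without MYCN-induced replicate 3 edgeR gave 0.21 for *HSP90AA1* (adjusted p = 0.0705), 0.15 for *BAG3* (adjusted p = 0.240) and 0.27 for *STIP1* (adjusted p = 0.0218). The near-identical genes *HSPA1A* and *HSPA1B* did not pass the count filter, with 0 counts in every library except 1 count of *HSPA1B* in control replicate 1, and counts of such copies are uncertain. Of 12 mitochondrial chaperones and proteases, 2 were higher and 0 lower (1.02% and 2.38% of all tested genes), with a median of 0.24. The median was 0.33 without MYCN-induced replicate 3. At an unadjusted p below 0.05, 7 were higher and 1 lower (8.13% and 10.6% of all tested genes). Without overlap between groups, 9 were higher and 1 lower (11.5% and 14.7% of all tested genes). DESeq2 called 4 higher, *HSPA9*, *TRAP1*, *DNAJA3* and *LONP1* (3.11% of all genes). Without MYCN-induced replicate 3, edgeR called a different set of 4 higher, *HSPA9*, *TRAP1*, *HSPD1* and *HSPE1* (3.68% of all genes). *HSPA9*, the mitochondrial HSP70, rose from 374 ± 2.37 to 534 ± 48.1 CPM (SD, n = 3 each; log2 fold change 0.51, edgeR, adjusted p = 0.0173). Its log2 fold change was 0.45 without MYCN-induced replicate 3 (edgeR, adjusted p = 0.00567). *TRAP1*, the mitochondrial HSP90, rose from 82.2 ± 4.48 to 107 ± 4.12 CPM (SD, n = 3 each; log2 fold change 0.38, edgeR, adjusted p = 0.0303). Their ER counterparts *HSPA5* and *HSP90B1* were at 0.03 and 0.02 on the same log2 scale. *HSPA9* missed the threshold without any 1 of the controls, and *TRAP1* with library size only (edgeR, adjusted p = 0.0586) and in 5 of the 6 fits that left out 1 library. When a control was left out, 18 to 46 of all tested genes were called higher. The most abundant mitochondrial chaperone by CPM, *HSPD1*, differed by 0.25 in log2 units (edgeR, adjusted p = 0.212) and by 0.36 without MYCN-induced replicate 3, where it was called (edgeR, adjusted p = 0.0155).

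**Figure D4:**
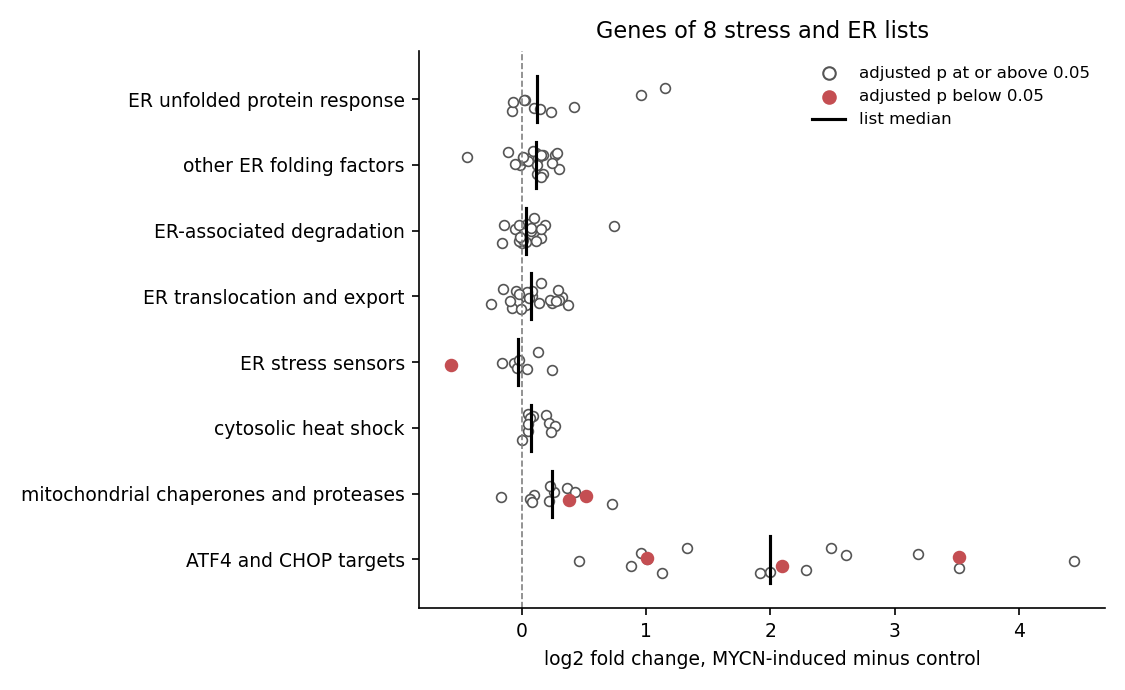
Each circle is the log2 fold change of 1 tested gene (horizontal axis, MYCN-induced minus control, log2 units) in 1 of 8 lists, filled where the adjusted p from edgeR was below 0.05, and the black bar is the list median. The ATF4 and CHOP targets lie from 0.46 to 4.44, whereas the ER lists lie mostly near 0, with *HERPUD1*, *XBP1* and *EDEM1* to the right and *EIF2AK3* to the left.

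By library, the ATF4 and CHOP targets had medians of 1.09, 0.47 and 3.05 in MYCN-induced replicates 1, 2 and 3, on the log2 scale relative to the control mean. The 10 ER genes had medians of 0.10, 0.09 and 0.16 in the same libraries, and between -0.02 and 0.02 in controls. All 17 tested ATF4 and CHOP targets had their highest value in MYCN-induced replicate 3, then replicate 1, then replicate 2 among the induced libraries. The same arrangement was found for 5 of the 10 ER genes, *HERPUD1*, *XBP1*, *DNAJB9*, *ATF6* and *DNAJC3*, and for 22.7% of all tested genes. MYCN-induced replicate 3 was the highest of the 6 libraries for 6 of the 10, these 5 and *HSPA5*, and for 25% of all tested genes. Both features also occurred in the other ER lists. The arrangement held for 5 of 8 ER stress sensors and proteases, 9 of 19 degradation factors, 6 of 22 folding factors and 8 of 22 translocation genes. In the same order of lists, replicate 3 was the highest for 3, 12, 8 and 7 genes. Relative to the control mean, *HERPUD1* was at 0.63, 0.30 and 1.96 and *XBP1* at 0.59, 0.16 and 1.68 in MYCN-induced replicates 1, 2 and 3. *HSP90B1*, *PDIA4*, *SDF2L1* and *CALR* were not highest in that library. Whether the level of the ATF4 targets and that of *HERPUD1* and *XBP1* are linked was not tested.

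**Figure D5:**
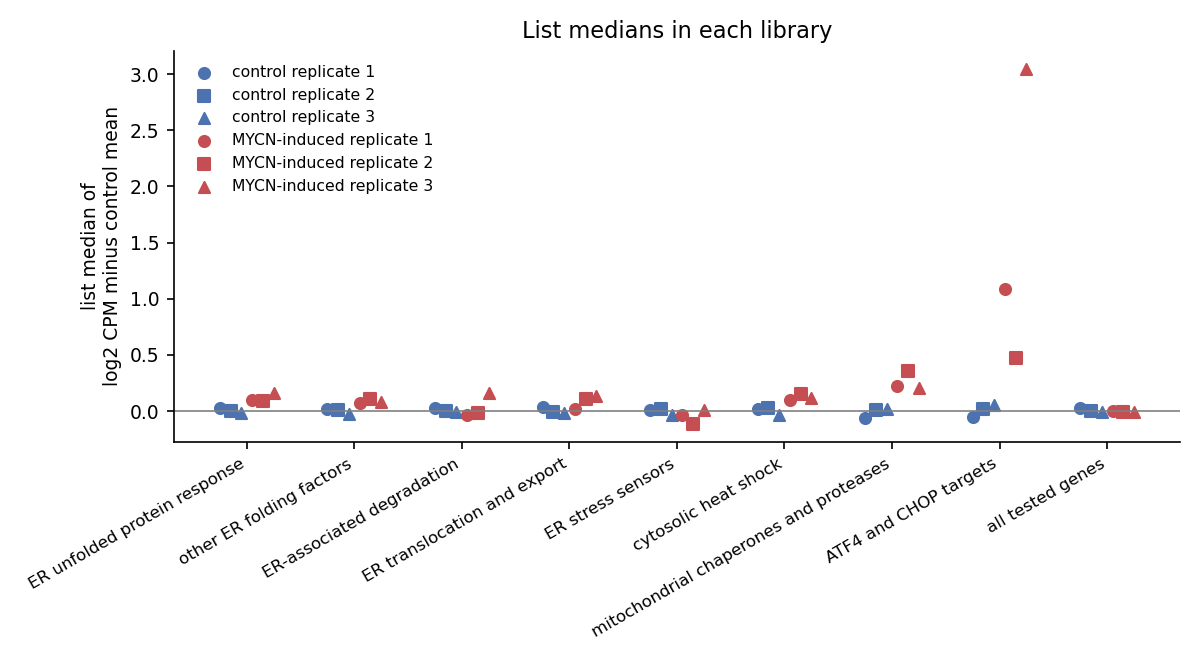
Points are list medians of log2 CPM minus the control mean (vertical axis, log2 units) for each library and list, with colours for conditions and shapes for replicate numbers. The ATF4 and CHOP targets reach 3.05 in MYCN-induced replicate 3, while the ER unfolded protein response genes stay at or below 0.16 in every library.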

How the data were processed

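Ribosomal RNA was removed from total RNA before the 3 control and 3 MYCN-induced libraries were sequenced. The authors deposited estimated counts, that is read pairs per gene over exons, with pairs on several genes split in equal fractions (31.9% to 33.4% of values above 0 were not whole). Per the file headers, unique STAR alignments were counted with featureCounts 1.6.4 without a strand option. The submitters' processing notes give STAR 2.7.1a, featureCounts 1.5.1 and GRCh38, and the methods add a strand option and the counting of multiple alignments, which leaves near-identical genes and genes overlapping on opposite strands uncertain. Identifiers were named from GENCODE release 44 (99.72% matched), where all 10 members had the same coordinates. The 92 spike-in sequences had 0 counts.

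Counts were rounded. The 29086 genes that reached 10 counts in 3 or more libraries entered edgeR 4.0.16 under R 4.3.3 (TMM, quasi-likelihood test without a replicate block, Benjamini-Hochberg adjustment, threshold 0.05). Standard errors are the log2 fold change divided by the square root of F, and 95% intervals use the test's degrees of freedom. TPM was computed from counts and exon lengths. The common biological coefficient of variation was 0.153. Replicates differed beyond sampling noise (chi-square per gene from 12.1 to 145.6). The study describes its replicates as independent experiments, the labels only number them, and p-values measure the spread between these libraries.

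The members and the other lists, written from general knowledge, were chosen with earlier results of these data known. Genes named are the members, genes overlapping them, the 3 profiles nearest to HSPA5 (1 of them is not reported here), and from each list the genes past the threshold, the most abundant, and, where none passed, the 2 with the largest change at a mean of at least 1 CPM. ERN1, ATF6B, PDIA5, TXNDC5, SRPRB, HSPH1, HSPA1A, HSPA1B, DNAJA3, LONP1, HSPE1 and the marker genes fall outside this rule and were named after their values were seen, as were the ratios to HSPA5. Alternatives were library size only, upper-quartile normalization, omission of the count filter, a minimum of 100 counts in all 6 libraries, DESeq2 1.42.0, a replicate block and leaving out each library.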

Additional observations from a re-analysis of the deposited data

How the results depend on the processing

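Of 120 refits of the members (10 genes under 12 alternatives), 117 kept their side of the threshold and 3 passed it, DNAJB9 (0.44) and XBP1 (0.98) with DESeq2 and HERPUD1 (0.48) without MYCN-induced replicate 3. The count of members higher was 2 with DESeq2 and from 0 to 1 when 1 library was left out, and the count lower was 0 throughout. The signs of HSPA5, HSP90B1 and SDF2L1 were not constant over the alternatives, with log2 fold changes from -0.05 to 0.08, from -0.02 to 0.04 and from -0.27 to 0.04. With library size only or upper-quartile normalization 6 of the 10 members lay above 0, against 8 as reported. The members' median stayed between 0.09 and 0.14. With the replicate block it was 0.12 and 0 members were called. Same-numbered libraries had correlations of deviations of 0.22, -0.02 and 0.07, so the numbers were not taken as pairs. The block moved the genes called from 298 higher and 692 lower to 265 and 575.

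The count of ATF4 and CHOP targets higher was 3 as reported, 6 with upper-quartile normalization, 11 with DESeq2, 9 without a count filter, 0 with at least 100 counts in every library, and from 0 to 11 when 1 library was left out. Over all genes, DESeq2 called 904 higher and 1199 lower, omission of the count filter 470 and 811, a minimum of 100 counts 227 and 404, and leaving out 1 library 18 to 1060 higher and 72 to 1279 lower. The causes were not tested.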
